A study of Mus musculus with 6 samples.

Results

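The genes described here are those that type I interferons switch on in almost every cell type: Ifit1, Ifit2, Ifit3, Isg15, Irf7, Usp18, Rsad2, Xaf1 and Rtp4. They were taken by name, through the gene symbol that the annotation of the array assigns to each probe set, a group of short probes that together measure one transcript region. Of the 9 genes, 8 had probe sets assigned to them alone, 12 probe sets out of 45037 tested. Isg15 had none, because its only probe set is also assigned to the pseudogene Gm9706. Ifit1, Ifit2, Ifit3, Irf7 and Usp18 had 1 probe set each, Xaf1 and Rtp4 had 2 each, and Rsad2 had 3.

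The samples came from whole livers of male mice aged 18 weeks, 3 samples of the strain New Zealand Obese (NZO) and 3 of C57BL/KS (BKS). Each sample was read on 1 array that measures transcripts near their 3' end. The NZO strain is polygenic and becomes obese and diabetic on ordinary chow, and BKS was the comparison strain. The titles of the BKS samples carry wt, for wild type, and those of the NZO samples give no genotype. The labels name no transgene or drug, and all animals ate standard chow. Expression values are log2 values made by the authors with RMA, so a step of 1 means a 2-fold change. The files do not mark which probe sets were detected. Probe sets averaging below 6 count as dim, and not every dim one is named as such below.

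Type I interferons are secreted when sensors inside a cell recognise viral or misplaced nucleic acid. They bind the receptor made of Ifnar1 and Ifnar2, whose kinases activate Stat2. With Irf9 it is part of a complex that binds interferon-stimulated response elements in the promoters of the induced genes. Irf7 and Usp18 are themselves such targets and feed back on the pathway, Irf7 by raising interferon production and Usp18 by blocking the receptor.

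The response element is a pair of GAAA (or, on the other strand, TTTC) blocks, and it is shown because the activated complex is known to bind it. Promoter windows of 300 bases (RefSeq, GRCm38.p6) were given for 7 of the 9 genes, among them Isg15 but neither Usp18 nor Rtp4. The motif GAAANNGAAA, searched on both strands with overlapping matches allowed, was found in the windows of 4 of them and in 3.44% of all 32851 windows. The stretches below are 30 bases long, run 5' to 3' in the direction of the gene, and carry in capitals the GAAA or TTTC blocks of the matches they hold. Ifit3 has 2 matches in its window, and one of them lies outside its stretch.
Ifit1, chr19:34640784-34640813, plus strand: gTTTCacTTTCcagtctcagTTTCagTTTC
Ifit3, chr19:34583363-34583392, plus strand: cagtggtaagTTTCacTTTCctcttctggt
Isg15, chr4:156200871-156200900, minus strand: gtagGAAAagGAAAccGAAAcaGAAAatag
Rsad2, chr12:26456553-26456582, minus strand: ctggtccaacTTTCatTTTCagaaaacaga
The windows of Irf7, Xaf1 and Ifit2 (which has 2 windows) held no match to these letters.

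A single member probe set passed the test between the strains. It belongs to Xaf1, a pro-apoptotic protein that binds the caspase inhibitor XIAP, and its signal was 15.7-fold lower in NZO. The size of this fold depends on low NZO values, which averaged 5.76 on the log2 scale. The estimates of the Ifit genes, Irf7, Usp18 and Rsad2 were at most 0.71 in size on the log2 scale, and Rtp4 reached -0.89. None of these passed, and a missed test with 3 arrays per strain does not show that a gene is unchanged. The 12 estimates had both signs and ran from -3.97 to 1.17. Whether the uncalled ones share a smaller change was not tested. In limma with Benjamini-Hochberg adjustment over all 45037 probe sets, 1 of the 12 was lower in NZO, none was higher and 11 did not pass at an adjusted p of 0.05. Over the whole array 0.424% of probe sets passed, 0.233% lower and 0.191% higher in NZO. At an unadjusted limma p under 0.05, 2 of the 12 were lower and 1 was higher, or 25%, against 10.1% of all probe sets in either direction. Of the 12, 9 were below 0, with a median log2 fold change (NZO minus BKS) of -0.37, against 49.8% of all probe sets below 0 and a median of 0.0012. Hepatocyte markers leaned the same way, with 10 of 13 probe sets below 0 and a median of -0.27, and NZO replicate 1 was the lowest NZO array in 12 of these 13. Without NZO replicate 1, 7 of the 12 member probe sets were below 0 (median -0.13), as were 7 of the 13 hepatocyte ones (median -0.0063) and 46.3% of all probe sets.

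**Figure D1:**
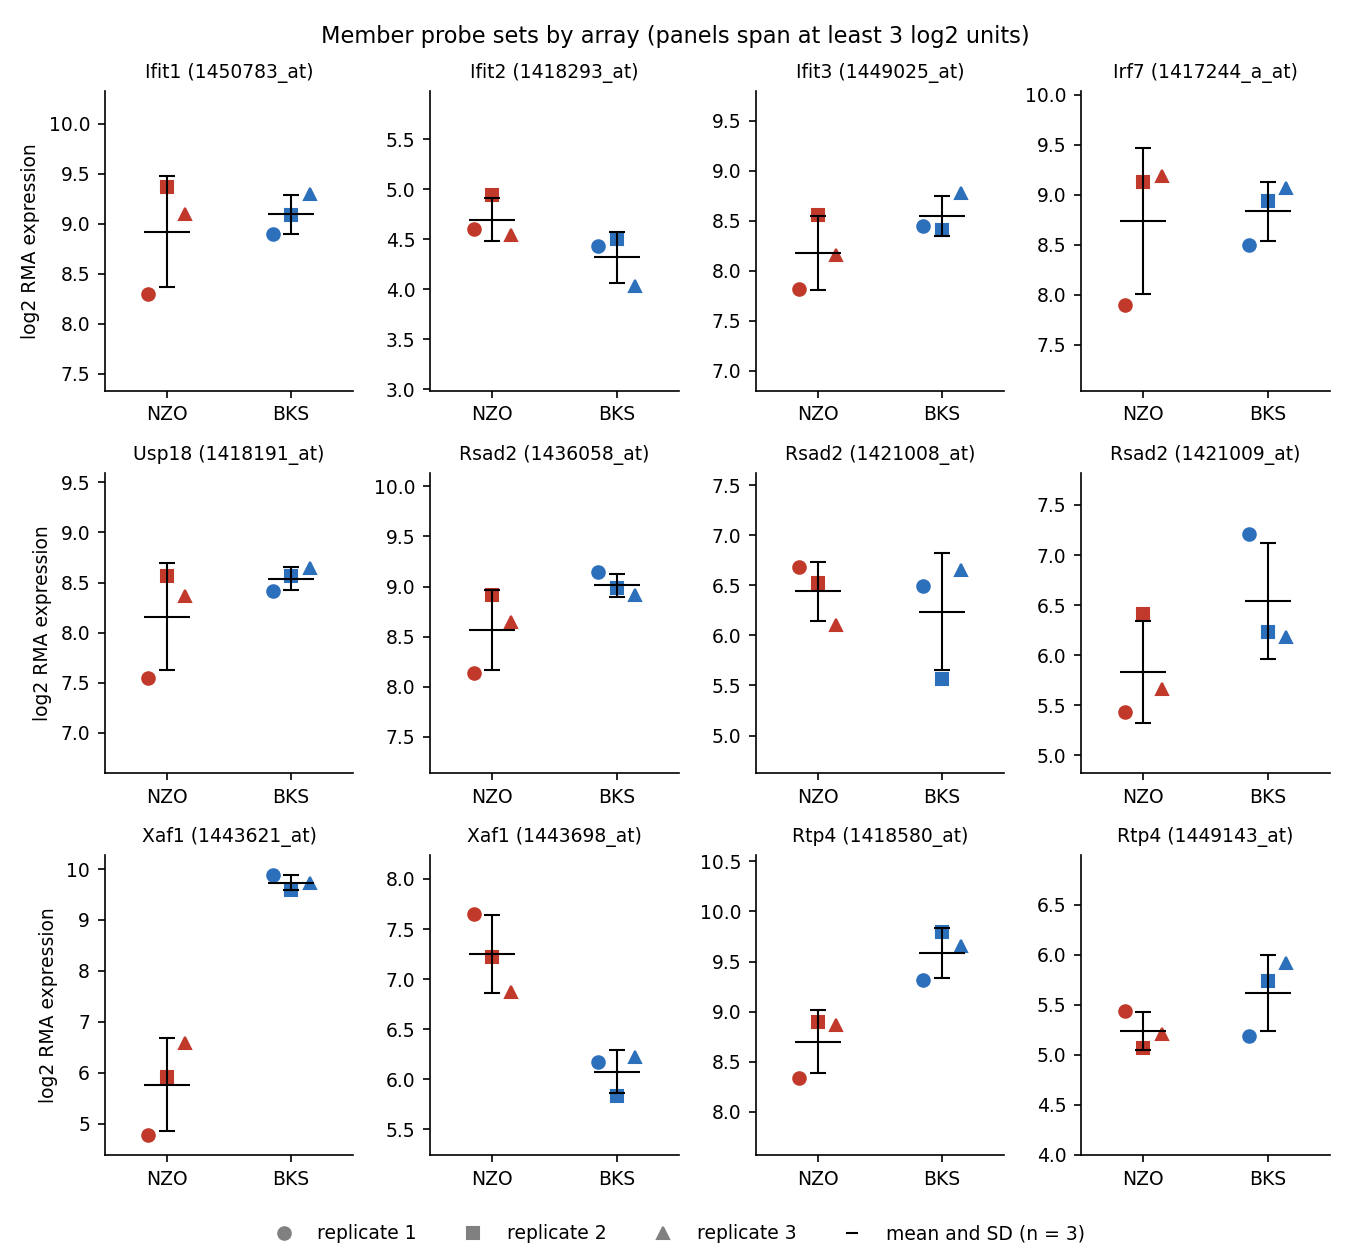
Log2 RMA expression (vertical axes, each spanning at least 3 units) of the 12 probe sets in NZO (red, left) and BKS (blue, right); each symbol is an array, horizontal bars are means and whiskers SD (n = 3 per strain). Xaf1 probe set 1443621 lies between 4.78 and 6.59 in NZO and between 9.59 and 9.88 in BKS, and the other Xaf1 probe set runs the opposite way. Of the 12, 3 were lower and 2 higher in NZO without overlap, against 8.49% and 6.83% of all probe sets.

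Some properties of the arrays moved with strain or with single arrays. The array titled number 1 in each strain (NZO replicate 1 and BKS replicate 1) had the lowest hybridization controls. They were 7.88 in NZO and 8.90 in BKS, against 9.78 to 11.2 on the other 4 arrays. BKS replicate 1 was nearer to BKS replicate 3 (9.78) than to NZO replicate 1, and no label calls the number 1 arrays a batch. NZO replicate 1 was the lowest of the NZO arrays in 8 of the 12 member probe sets, and in 47.2% of all probe sets. The 3' minus 5' signal of beta-actin, a measure of RNA or cDNA truncation, was 1.29 to 1.39 in NZO and 1.72 to 2.33 in BKS, so it moved with strain. The 18S ribosomal RNA control was 4.64 to 5.52 in NZO and 4.51 to 10.5 in BKS. The part of these properties in the strain differences was not tested. Hepatocyte markers checked the tissue label, and 6 of 6 averaged at least 6 on the log2 scale.

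Xaf1 turned on its probe sets. Probe set 1443621 had 4.78, 5.91 and 6.59 in NZO livers, against 9.88, 9.59 and 9.73 in BKS livers. All NZO arrays lay far below all BKS arrays, and the NZO values were the more scattered. The mean was 5.76 ± 0.91 in NZO and 9.73 ± 0.14 in BKS (SD, n = 3 each), which is -3.97 as a log2 fold change (standard error 0.42, limma adjusted p = 0.0177). Of the NZO values, 4.78 lay below the array medians of 5.08 to 5.22, and 5.91 and 6.59 lay above them. The NZO mean of 5.76 is low, so the size of the fold depends on low values, most of all on NZO replicate 1. Omitting any BKS array or NZO replicate 2 ended the call (in that order, adjusted p = 0.0533, 0.135, 0.109 and 0.0688), while the log2 fold change stayed between -4.39 and -3.48 over all 6 single-array omissions. Leaving out both number 1 arrays gave -3.41, and those arrays by themselves gave -5.10.

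Probe set 1443698, assigned to Xaf1 as well, pointed the other way. It had 7.65, 7.22 and 6.88 in NZO livers, against 6.17, 5.83 and 6.22 in BKS livers. Here every NZO array lay above every BKS array. The log2 fold change of 1.17 (standard error 0.22) did not pass (limma adjusted p = 0.118). With the number 1 arrays as a block it did (adjusted p = 0.0228), in a fit that called 2.97% of all probe sets. The difference was 1.02 without the number 1 arrays and 1.47 from these alone.

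Whether the Xaf1 probe sets disagreed beyond array error was tested on their difference within each array, which removes anything that scales both alike. Probe set 1443698 minus 1443621 was 2.87, 1.31 and 0.29 in NZO, against -3.71, -3.76 and -3.50 in BKS. Probe sets differ in how strongly they bind, so the level of this quantity and its sign carry no meaning, and only its change between strains is read. Every NZO array lay above every BKS array. The strain difference of this quantity was 5.14 on the log2 scale (95% interval 3.87 to 6.42). All 16752 such pairs of probe sets within a gene were fitted together with limma, and the Xaf1 pair passed (adjusted p = 0.00935), as did 0.585% of the pairs. It ranked 4 by size among them. In only 7 of the 16752 pairs (0.0418%) did both probe sets change by at least 1 on the log2 scale in opposite directions, and the Xaf1 pair is one. The call did not hold without BKS replicate 2 (difference 5.09, adjusted p = 0.0777). An exact permutation test of the pair alone gave p = 0.1, two-sided, the smallest that 3 against 3 arrays allow. This disagreement was known when the genes were chosen, so its test is no independent support. When the probe sets of each gene were averaged, Xaf1 was at -1.40 (limma adjusted p = 0.0219 over 18193 genes), against -3.97 from probe set 1443621 as the gene's representative (adjusted p = 0.00913).

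**Figure D2:**
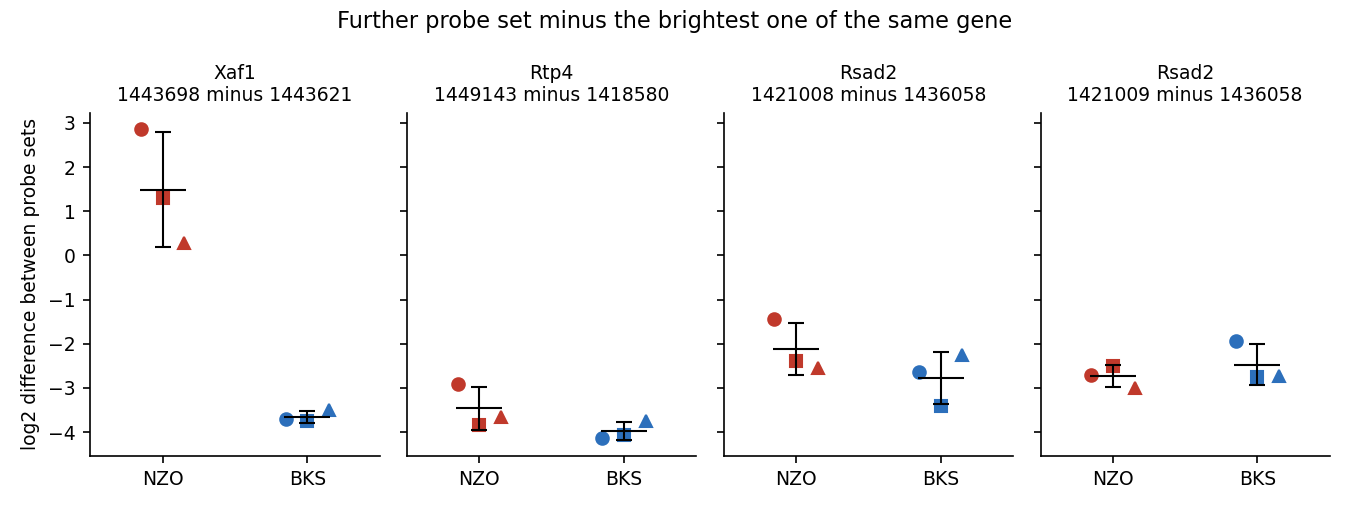
Log2 difference between a further probe set and the brightest one of the same gene (vertical axis), in NZO (red, left) and BKS (blue, right) arrays; circles, squares and triangles are replicates 1, 2 and 3, horizontal bars means and whiskers SD (n = 3). Only the gap between strains can be read, not the level: it is 5.14 for Xaf1 and between -0.26 and 0.65 for Rtp4 and Rsad2.

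Rtp4, a chaperone that carries receptors to the cell surface, was the next largest difference among the members. Probe set 1418580 had 8.34, 8.90 and 8.86 in NZO livers, against 9.31, 9.79 and 9.66 in BKS livers. The strains did not overlap, which held for 15.3% of all probe sets, 8.49% with NZO lower. The log2 fold change of -0.89 (standard error 0.21) did not pass (limma adjusted p = 0.198). It passed with the number 1 arrays as a block (adjusted p = 0.0164), and it was -0.84 without these arrays and -0.97 from them alone. The dimmer probe set 1449143 had 5.44, 5.07 and 5.20 in NZO and 5.19, 5.73 and 5.92 in BKS. Its strains overlapped (log2 fold change -0.38, limma adjusted p = 0.650), and the strain difference of the Rtp4 pair was 0.51 (95% interval -0.14 to 1.17, adjusted p = 0.420).

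Rsad2, also called viperin, makes a chain-terminating nucleotide that stops viral polymerases. Its probe set 1436058 had 8.13, 8.91 and 8.65 in NZO livers, against 9.14, 8.98 and 8.91 in BKS livers. The highest NZO array lay just below the lowest BKS array, with a log2 fold change of -0.45 (standard error 0.21, limma adjusted p = 0.566). Probe set 1421009 stood at 5.43, 6.41 and 5.66 in NZO and 7.21, 6.23 and 6.19 in BKS, which overlap (-0.71, limma adjusted p = 0.593). Probe set 1421008 stood at 6.68, 6.53 and 6.11 in NZO and 6.50, 5.57 and 6.65 in BKS (0.20, limma adjusted p = 0.897). The 3 estimates thus had different signs and none passed. The further probe sets differed from 1436058 in their strain difference by 0.65 (95% interval -0.23 to 1.53) and -0.26 (95% interval -0.91 to 0.39), neither past the test (limma adjusted p = 0.447 and 0.713).

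The IFIT proteins bind viral RNA that lacks the cap structure of host messages. Ifit1 had 8.30, 9.36 and 9.10 in NZO livers, against 8.90, 9.08 and 9.30 in BKS livers. The NZO arrays lay on both sides of the BKS arrays, and the log2 fold change was -0.17 (95% interval -0.84 to 0.50, limma adjusted p = 0.905). Its sign depended on NZO replicate 1, without which it was 0.14. Ifit3, which stabilises Ifit1 in complex, had 7.82, 8.55 and 8.16 in NZO livers, against 8.45, 8.41 and 8.78 in BKS livers (-0.37, 95% interval -0.88 to 0.14, limma adjusted p = 0.654). These groups overlapped through NZO replicate 2. Ifit2 had 4.60, 4.94 and 4.55 in NZO livers, against 4.43, 4.50 and 4.03 in BKS livers, all below the array medians. Every NZO array of Ifit2 was above every BKS array (0.38, limma adjusted p = 0.581), a separation that 6.83% of all probe sets showed in that direction.

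The feedback genes Irf7 and Usp18 did not pass either. Irf7, the transcription factor that amplifies interferon production, had 7.90, 9.13 and 9.19 in NZO livers, against 8.50, 8.94 and 9.06 in BKS livers. A pair of NZO arrays lay above all BKS arrays and NZO replicate 1 below them, so the strain difference of -0.10 (95% interval -0.96 to 0.76, limma adjusted p = 0.961) became 0.32 without NZO replicate 1. Usp18, the protease that removes Isg15 from proteins and blocks the interferon receptor, had 7.55, 8.57 and 8.36 in NZO livers, against 8.41, 8.56 and 8.64 in BKS livers. Its difference was -0.38 (95% interval -1.01 to 0.26, limma adjusted p = 0.728) and -0.07 without NZO replicate 1. The intervals of Ifit1, Ifit3, Irf7 and Usp18 still allow log2 fold changes as low as -0.84, -0.88, -0.96 and -1.01, in that order. Those of other uncalled member probe sets reach down to -1.56 (Rsad2 probe set 1421009) and -1.38 (Rtp4 probe set 1418580).

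**Figure D3:**
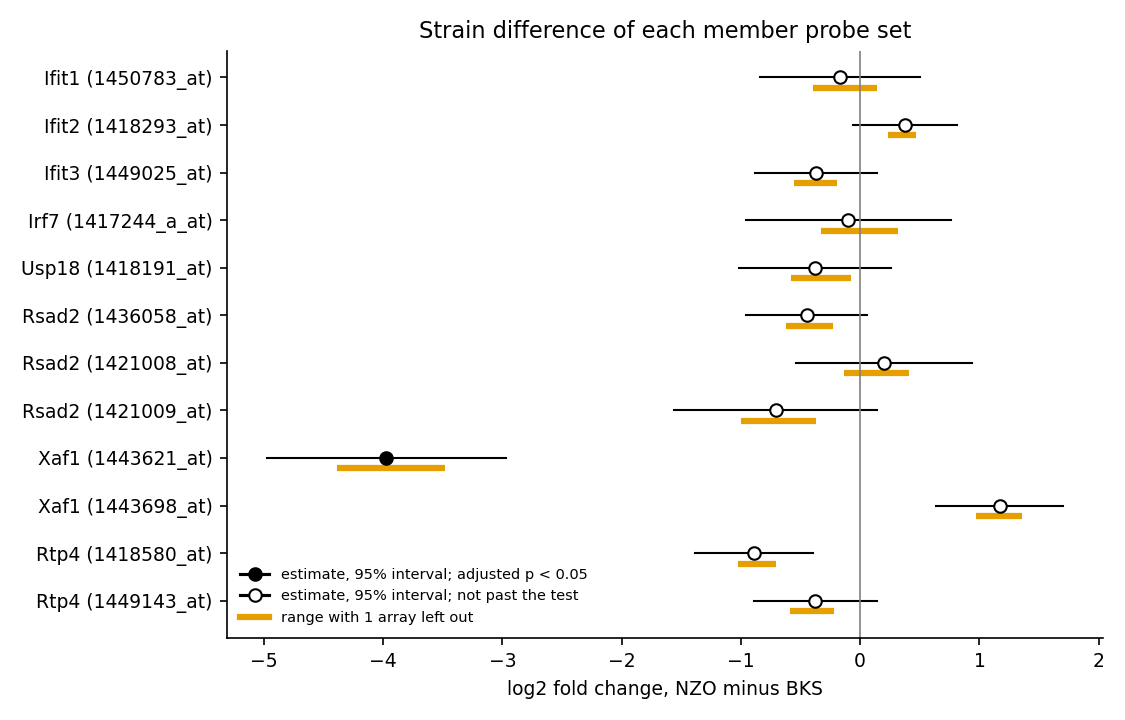
Log2 fold change, NZO minus BKS (horizontal axis), of the 12 probe sets with its 95% interval (black line) and the range of estimates when 1 of the 6 arrays is left out (orange bar); filled points passed the test. Only Xaf1 probe set 1443621 (-3.97) is filled, and the orange bars of Ifit1, Irf7 and Rsad2 probe set 1421008 cross 0.

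The other genes of the pathway were read from lists of 117 entries, of which 98 genes with 177 probe sets were measured. Of these, 1 probe set was lower and 1 higher in NZO and 175 did not pass, or 1.13% called against 0.424% of all probe sets. The lists were chosen with earlier results of these data known, so shares counted in them are no independent support. The median log2 fold change of the 177 was -0.06, with 95 below 0. At an unadjusted limma p under 0.05, 26 were lower and 9 higher, or 19.8% against 10.1% of all probe sets. With the number 1 arrays as a block, 7 were lower and 3 higher, where 2.04% of all probe sets were lower and 0.926% higher.

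The lower one among the antiviral effectors was Gm4951, a predicted gene of the interferon-inducible GTPase family. It had 7.48, 8.53 and 7.73 in NZO livers, against 11.5, 11.7 and 11.7 in BKS livers, with no overlap (log2 fold change -3.72, standard error 0.27, limma adjusted p = 0.00471). Omitting BKS replicate 2, BKS replicate 3 or NZO replicate 3 ended its call (adjusted p = 0.0632, 0.0518 and 0.0503). The higher one was Mx1, a dynamin-like GTPase that blocks influenza virus, with 5.49, 5.36 and 5.21 in NZO and 4.40, 4.37 and 4.26 in BKS (1.02, limma adjusted p = 0.0393). Its BKS values lie below the array medians, and it did not pass in any of the 6 fits with 1 array left out (adjusted p from 0.0560 to 0.237). Its relative Mx2 was at -0.42 (limma adjusted p = 0.360). Of the RNA-sensing oligoadenylate synthetase family, 6 genes were measured with 1 probe set each, 3 above and 3 below 0 and none past the test in limma (1 lower unadjusted). They ran from -0.64 for Oas1a (limma adjusted p = 0.320) to 0.54 for Oasl1 (limma adjusted p = 0.624), with the dim Oasl2 at -0.06 (limma adjusted p = 0.971). Cmpk2, a mitochondrial nucleotide kinase encoded beside Rsad2, had 2 probe sets, at 0.37 and -0.30 (limma adjusted p = 0.635 and 0.725), the first of them dim.

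Genes that produce or transmit the interferon signal did not pass. None of 38 probe sets for sensing and induction passed in limma (6 lower and 1 higher at an unadjusted p under 0.05). That unadjusted share is 18.4%, against 10.1% of all probe sets. The smallest p belonged to 2 probe sets of Rnaseh2c, a subunit of the ribonuclease that removes RNA from DNA. They were at -1.42 and -1.38 (limma adjusted p = 0.0869 and 0.101, and 0.00506 and 0.0158 with the number 1 arrays as a block). Its further probe set 1417427 was at -0.99 and passed neither fit (limma adjusted p = 0.358, and 0.0654 with the block). The 4 probe sets of Irf3, the factor that starts interferon transcription, lay between -0.61 and 0.24. Among 9 interferon probe sets none passed in limma, adjusted or unadjusted, with Ifnb1 at 0.27 (adjusted p = 0.746) and Ifna5 at -0.33 (adjusted p = 0.514). Of these 9, 7 averaged below 6. None of 33 probe sets of the receptor and its signalling passed in limma (6 lower and 2 higher unadjusted, or 24.2%). Their smallest p values were those of Socs3, an inhibitor of cytokine receptors, and of Irf2, a repressor of interferon targets. Socs3 was at -2.21 (limma adjusted p = 0.207), and its further probe sets were at -1.12 and -0.76 (limma adjusted p = 0.379 and 0.337). Irf2 was at -0.89 (limma adjusted p = 0.261, and 0.0258 with the number 1 arrays as a block).

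The receptor chains and the transcription complex showed values of both signs. Ifnar1 was at -0.59 (limma adjusted p = 0.399) and 0.25 from its dimmer probe set, and the 3 Ifnar2 probe sets lay between -0.34 and 0.18. Stat2 was at 0.59 and 0.44 (limma adjusted p = 0.443 and 0.581) and Irf9 at 0.01 (limma adjusted p = 0.993). Among 8 probe sets of the enzymes that attach Isg15 to proteins none passed in limma (1 lower and 1 higher unadjusted, or 25%). The activating enzyme Uba7 ranged from -1.05 to 0.24 over 3 probe sets, the conjugating enzyme Ube2l6 was at -0.07, and the ligase Herc6 ranged from 0.16 to 0.80 over 4 probe sets. One Herc6 probe set, 1431095, passed with the number 1 arrays as a block (adjusted p = 0.0405). Of 4 probe sets of RTP and IFIT relatives none passed in limma (1 higher unadjusted, or 25%). Ifit1bl2 was at 0.34 and 0.21 (limma adjusted p = 0.496 and 0.734), both from dim probe sets.

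**Figure D4:**
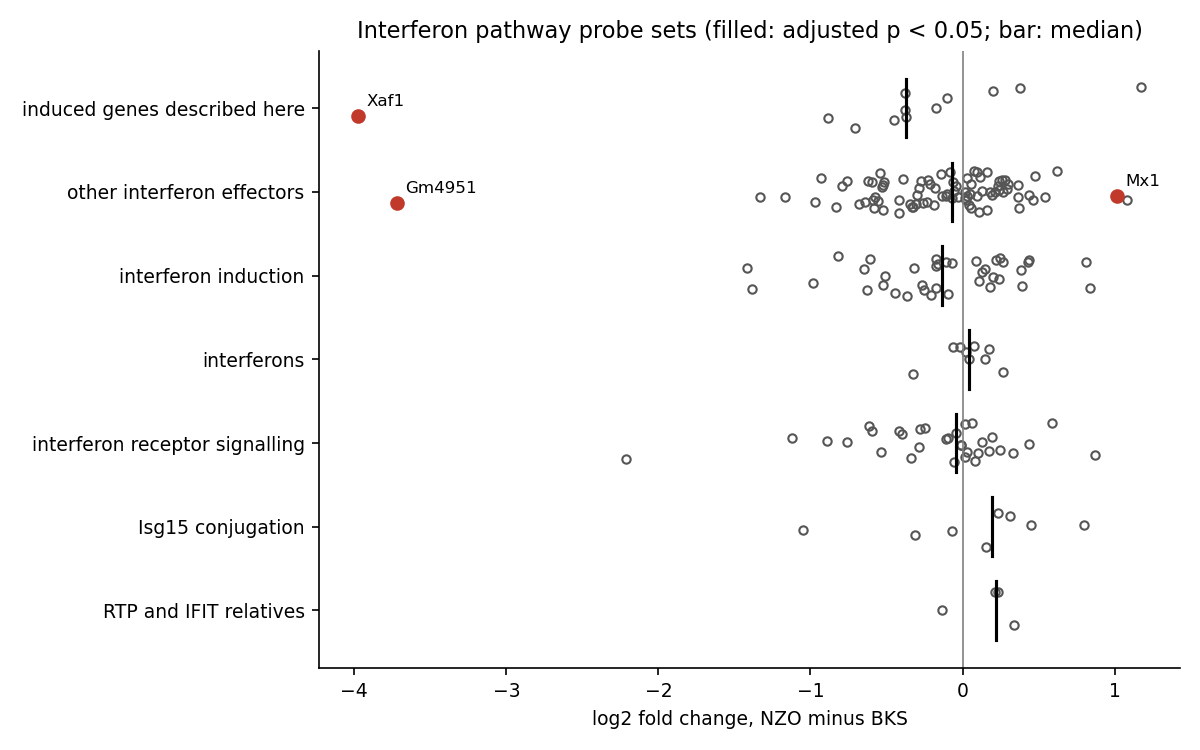
Log2 fold change, NZO minus BKS (horizontal axis), of every probe set in the interferon lists (rows); points are spread vertically for visibility, filled points passed the test and black bars are medians. The filled points are Xaf1 (-3.97), Gm4951 (-3.72) and Mx1 (1.02), and the medians of all lists lie between -0.37 and 0.22.

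Immune and other nonhepatocyte cells also express these genes, and in whole liver fewer cells of a type and less RNA per cell cannot be told apart. Of 90 marker probe sets of 9 cell types none passed in limma. At an unadjusted limma p under 0.05 1 was lower and 5 were higher, or 6.67% against 10.1% of all probe sets. With the number 1 arrays as a block 1 passed, a probe set of the endothelial marker Pecam1 that was dim in both strains (0.71, adjusted p = 0.0455, no overlap). The summed linear level of 8 Kupffer cell and macrophage markers was 2230 to 4206 in NZO and 2354 to 4654 in BKS, with the lowest NZO value in replicate 1. That of 10 T and NK cell markers was 452 to 1213 in NZO and 490 to 526 in BKS, with 7 of the 10 averaging below 6. The NZO maximum was replicate 1, through Cd8a probe set 1440164 (9.55, against 6.41 and 6.70 on the other NZO arrays). Without that array the NZO range was 451.5 to 534. The probe sets of Cd8a disagreed: 1440811 was also raised on NZO replicate 1 (8.54), while 1425335, 1444078 and 1451673 were not (4.28, 4.44 and 4.34). The summed level of 5 markers of plasmacytoid dendritic cells, a major source of interferon, was 388 to 523 in NZO and 367 to 434 in BKS. Endothelial markers summed to 977 to 1801 in NZO and 762 to 1091 in BKS, and all 8 of their probe sets were above 0. The lowest NZO value was again replicate 1, with 1298 and 1801 on the other NZO arrays. Hepatocyte markers summed to 58980 to 120900 in NZO and 109000 to 114700 in BKS. The low NZO value was replicate 1 alone, the array that was lowest of the NZO arrays for most member probe sets, and the other NZO arrays had 119500 and 120900. Cholangiocyte markers summed to 1014 on NZO replicate 1, against 312 and 302.3 on the other NZO arrays and 286.7 to 352.9 in BKS. The part of cell makeup in the Xaf1 result was not tested.

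The array profile of the member genes, averaged over the brightest probe set of each of the 8, was -0.91, -0.05 and -0.15 around its mean in NZO replicates 1, 2 and 3, and 0.29, 0.40 and 0.43 in BKS replicates 1, 2 and 3. Xaf1 carried much of it: without Xaf1 the average of the other 7 genes was -0.62, 0.20 and -0.01 in NZO and 0.03, 0.19 and 0.21 in BKS, and the strain gap was -0.28 in place of -0.74. The likeness search used the average of all 8. Among 8288 other probe sets with 1 symbol, a mean of at least 6 and a range of at least 1, the nearest in root mean square distance over the 6 arrays were Ctnna1 (0.03), Clu (0.05), Ube4b (0.05), Eif2b2 (0.05) and Idh1 (0.06). The members themselves lay between 0.16 (Rtp4) and 1.65 (Xaf1) from an average that includes them.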

How the data were processed

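Liver RNA of NZO and BKS mice was hybridised to 3 arrays per strain. The deposited values are log2 per probe set. The submitters' processing notes name RMA (background correction, quantile normalization across arrays and summary of probes) and Affymetrix Expression Console, with versions not given in the sources used here. The number of arrays limits the precision. Separate animals are not stated in so many words, and p-values then cover only the spread between these samples.

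Of 45101 probe sets, 64 controls were left out. Symbols came from the platform annotation (34945 probe sets with 1 symbol, 932 with several, 9160 with none listed). The strain test was limma's (version 3.58.1, R 4.3.3) with default eBayes, no covariate and both sides, with Benjamini-Hochberg adjustment over 45037 probe sets and a threshold of 0.05. Differences between probe sets of a gene were fitted the same way. On simulated data with 45037 probe sets and 3 arrays per strain, 76% of changes of -2 and 96% of changes of 4 on the log2 scale were recovered. Members, lists and tests were chosen with earlier results of these data known. Named were all member probe sets, a fixed set of pathway genes, and in each list those past the test or the 2 with the smallest p. List genes were matched by symbol or RefSeq synonym, and 23 of them were not analysed here. Alternatives changed the normalization, dim filter, probe set choice, variance model, weights and arrays. Leaving NZO replicate 1 out of the count below 0, and Xaf1 out of the member average, were chosen after seeing the data. Figures used matplotlib 3.10.9 in Python 3.11.15.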

Additional observations from a re-analysis of the deposited data

How the results depend on the processing

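Counts moved with most settings. Against 191 probe sets past the test in limma over 6 arrays, there were 604 after a second quantile normalization, 584 after cyclic loess, 314 with an intensity trend, 373 with trend and robust fitting, 829 with array weights, 1336 with the number 1 arrays as a block, 1192 without the number 1 arrays, 124 genes when probe sets were averaged, and 26 to 272 with 1 array left out. Member probe sets lower in NZO numbered 1, against 2 after a second quantile normalization, with array weights, with the block and without the number 1 arrays, the second being Rtp4 probe set 1418580 each time, and 0 to 1 with 1 array left out. The 1 member higher in NZO with the block was Xaf1 probe set 1443698, and no other setting called one. Other pathway probe sets past the test numbered 2, against 5 after a second quantile normalization, 6 after cyclic loess, 1 after median centring, 6 with array weights, 10 with the block, 7 without the number 1 arrays, and 0 to 2 with 1 array left out. The Xaf1 probe set difference ran from 4.45 to 5.74 with 1 array left out, where it missed the threshold only without BKS replicate 2, and was 6.57 between the number 1 arrays alone.

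The sign of some uncalled values turned. Ifit1 was at 0.022 after a second quantile normalization, 0.070 after cyclic loess, 0.043 without the number 1 arrays and -0.39 to 0.14 with 1 array left out. Irf7 was at 0.057, 0.13 and 0.15 under these settings, 0.063 with array weights and -0.32 to 0.32 with 1 array left out. Rsad2 probe set 1421008 ranged from -0.13 to 0.41 with 1 array left out. In the number 1 arrays alone Rtp4 probe set 1449143 stood at 0.25. The cause of these moves was not tested. The filter on dim probe sets leaves Ifit2 and Rtp4 probe set 1449143 out, and fits by gene hold no difference between the Xaf1 probe sets. No paired analysis was possible because the strains share only the number 1 in their titles. With 3 arrays per strain and no detection calls, precision and the size of folds at low values are limited.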

Other observations

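The probe set assigned to both Isg15 and the pseudogene Gm9706 had 6.91, 7.74 and 7.41 in NZO livers, against 6.97, 7.95 and 8.00 in BKS livers. The strains overlapped, with a difference of -0.29 (95% interval -1.08 to 0.50, limma adjusted p = 0.852). Because the signal can come from either sequence, no level is given for Isg15 itself.

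Among the interferon lists, a further 8 probe sets passed with the number 1 arrays as a block and not without it. The block fit called 2.97% of all probe sets. Besides the Rnaseh2c, Irf2 and Herc6 probe sets named above as passing with the block, the 8 included Parp14, an ADP-ribosyltransferase induced by interferon (-0.93). Also among them were Tap1, a subunit of the peptide transporter of antigen presentation (-1.16), Tor3a (1.08, a dim probe set) and Bst2, which tethers budding viruses to the cell (-0.83). Further probe sets of Parp14, Tap1 and Tor3a did not pass. They were at -0.18 for Parp14, at -0.03, 0.11 and 0.18 for Tap1, and at 0.29 and 0.46 for Tor3a, and all of them averaged below 6.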
